A study of Homo sapiens with 18 samples.

Results

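The smooth muscle contractile genes are 10 genes of the actin and myosin machinery of smooth muscle and its coactivator: ACTA2, ACTG2, MYH11, MYLK, TAGLN, CNN1, LMOD1, SYNPO2, DES and MYOCD. Their members here are accessibility peaks, taken by position alone: every peak of the count table (build hg38) that touched a gene in GENCODE release 44 or the stretch of 10 kb that precedes it. That rule found 241 of the 334857 peaks, and all 241 passed the filter on low values. MYLK held 70 of them, MYH11 52, SYNPO2 36, ACTA2 22, MYOCD 19, LMOD1 14, ACTG2 9, CNN1 9, DES 7 and TAGLN 3. By annotation 163 peaks lay in introns, 37 touched a coding exon, 17 a UTR exon, 9 a non-coding exon, and 15 lay upstream.

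Open chromatin was profiled by ATAC-seq, in which a transposase inserts adaptors into open DNA, on bulk nuclei of Ccd18-Co, an established line of colon fibroblasts. The 18 libraries formed 3 groups of 6. Unstimulated cells had no cytokines. Both stimulated groups received 3 pulses of TNF, OSM and IL-17A (10 ng/ml each) with IL-1B (0.1 ng/ml), every pulse being 72 h in serum-free medium and then 96 h of recovery, followed by 1 week of rest. They were then kept for 5 days with the solvent DMSO (stimulated_DMSO) or with 250 nM belinostat, an inhibitor of histone deacetylases (stimulated_Belinostat), and nuclei were taken 2 weeks afterwards. These are the doses of the labels, and the study's text gives other doses of IL-1B and belinostat in places. Solvent was held constant across treatment groups in the study's methods, and the labels do not say whether the unstimulated cells of these libraries received it. They also give no pulse or recovery times for those cells, so whether those cells went through the serum-free periods is not known here. The part of such a difference in the contrasts against unstimulated cells was not tested. The model is a single cell line grown in wells, and it is not smooth muscle. The cytokine contrast below is stimulated_DMSO against unstimulated, the belinostat contrast is stimulated_Belinostat against stimulated_DMSO, and the residual contrast is stimulated_Belinostat against unstimulated, so any pair of contrasts shares 6 libraries.

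Smooth muscle shortens when myosin, switched on by phosphorylation of its light chain, pulls on actin filaments anchored in the membrane and in dense bodies. Fibroblasts that become myofibroblasts switch on part of the same set, and ACTA2 is the usual marker of that state. Many of these genes carry CArG boxes, the sites of serum response factor (SRF), which drives them together with myocardin or with the actin-sensing MRTF coactivators.

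The CArG box, CC and GG around A or T letters, was searched on both strands of the member peaks, since it is the sequence feature that ties these genes together. At least 1 box stood in 23 of the 241 peaks, 25 boxes in all, and each of the 10 genes had such a peak. A selection of these boxes, from peaks described below, is shown with 10 flanking bases on each side (build hg38, strand of the gene, 5′ to 3′, box in capitals).
ACTG2 start, chr2:73892888-73892917: gaaaaaaccaCCTTATATGGtaatattgct
ACTG2 start, chr2:73892925-73892954: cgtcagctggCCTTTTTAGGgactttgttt
MYH11 upstream, chr16:15858219-15858248: gcctcgacttCCTTTTATGGcctgtgtgtg
CNN1 past the start, chr19:11539910-11539939: agacgccgcgCCTTATAAGGcggcctcggg
DES upstream, chr2:219416930-219416959: cctctttaaaCCTTTATAGGgtagcatggc
MYLK downstream start, chr3:123620623-123620652: ataaaccatcCCTTTTATGGgagttgaagc
MYLK intron, chr3:123632434-123632463: gattatagttCCTAATAAGGaagggaggtt
MYLK exon-touching peak, chr3:123701210-123701239: ttgcacacacCCTTATAAGGctactgaagt
ACTA2 intron, chr10:88951652-88951681: gcgtgttttaCCTAATTAGGaaatgctttg
SYNPO2 upstream, chr4:118846977-118847006: ggaaagtcttCCATTTATGGcttgctttac
SYNPO2 distal, chr4:119034171-119034200: aatagaacaaCCAAAAAAGGcttcttatgg

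In windows reaching 100 bases to either side of peak centres, 15 of the 241 member peaks (6.22%) held a CArG box, against 1.14% of all peaks and 0.679% of peaks at protein-coding starts. Of the RefSeq promoters (GRCh38.p14, 250 bases before to 50 after a start), 454 of 35116 (1.29%) held one. RefSeq promoters were matched for ACTA2, ACTG2, CNN1, LMOD1, MYLK and SYNPO2, 9 entries in all, of which those of ACTG2 and MYLK held a box. The entries of MYH11, DES, TAGLN and MYOCD were not among those matched. The AP-1 word TGANTCA stood in 17.0% of member windows and 14.2% of all windows, and the TEAD word GGAATG in 17.0% and 15.6%. The MEF2 box was found in 0 of the 241 windows and in 0.426% of all windows. These are matches of letters only.

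Peaks with a CArG box were also wider and stronger than the other member peaks: their median width was 638 bp against 279.5 bp, and their median of the average log2 CPM (counts scaled to library depth, with TMM) was 3.53 against 0.79 in the other 218. A wider peak offers more letters to match. Member peaks as a whole were stronger than all peaks, with a median average log2 CPM of 0.99 against 0.20. Of member peaks 17.4% had an average over 3, against 8.88% of all peaks. Their median GC content was 48.4% against 50.2%. The 40 peaks that also lay in another protein-coding gene's body cannot be assigned to 1 gene: these were all 22 of ACTA2, which lie within or beside STAMBPL1 and FAS, 14 of MYH11, 2 of TAGLN, 1 of CNN1 and 1 of LMOD1.

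Levels of the start peaks, the strongest peak from 1 kb before to 500 bp after the annotated start, were compared per kb of peak in unstimulated cells. TAGLN stood highest with 64.8 ± 7.49 CPM per kb (SD, n = 6), then LMOD1 with 50.1 ± 4.39. ACTG2 followed with 31.4 ± 3.87. Lower came MYLK with 24.9 ± 2.2 and ACTA2 with 22.4 ± 0.552, which overlapped within their SDs. MYOCD had 17.3 ± 2.03 and MYH11 14.8 ± 2.22, again without a gap beyond the spread. CNN1 had 9.25 ± 1.77. SYNPO2 with 2.90 ± 0.837 and DES with 2.24 ± 1.02 closed the order and could not be separated. The median over 15681 protein-coding genes was 17.8, so the starts of TAGLN, LMOD1, ACTG2, MYLK and ACTA2 lay above it and those of MYOCD, MYH11, CNN1, SYNPO2 and DES below it. The ACTA2 value is that of its upstream annotated start, whose peak also lies in another protein-coding gene's body. The MYLK value is that of the long transcript's start, whose peak had an average log2 CPM of 4.77. Its stronger downstream start peak had 5.61. The downstream starts of ACTA2 and MYLK, described below, and the further RefSeq starts of SYNPO2 were not ranked. The order thus holds for 1 annotated start per gene. Of 9 fibroblast markers 8 had a start peak, from 8.14 CPM per kb at DCN to 68.0 at COL1A1 (median 31.6), and DCN, LUM (8.24) and COL3A1 (14.8) lay below the median of all genes. Medians were 3.77 for 6 epithelial, 1.83 for 3 of 4 endothelial and 2.10 for 3 of 4 glial and neuronal markers, while 2 of 5 immune markers had a start peak, CD3E at 1.87 and CD68 at 30.7. Among the epithelial markers KRT8 stood apart at 29.6.

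The libraries held 4661678 to 11352032 counts, and the stimulated_Belinostat libraries were the shallowest (6370845 at most). The 10000 strongest peaks took a share of counts that was 35.4% to 39.0% in unstimulated libraries, 31.8% to 35.2% with DMSO and 28.4% to 34.5% with belinostat. Libraries were scaled by TMM, a trimmed mean of peak ratios, whose factors were 0.827 to 0.925, 0.950 to 1.08 and 0.976 to 1.18 in the same order. The median log2 fold change of all 19188 protein-coding loci in the cytokine contrast was -0.26 under TMM scaling. It was -0.04 when library totals were used and -0.02 under loess offsets, which remove the trend with peak abundance. Directions of loci are therefore stated below under both TMM and loess. In bulk libraries a site open in fewer cells and a site less open in each cell cannot be told apart.

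The cytokine contrast asked whether the pulses left a change at the contractile genes after rest. Summed over the peaks of each locus, accessibility was lower in stimulated_DMSO than in unstimulated cells at 9 of 10 loci with TMM, all but DES. These closed loci ran from -0.42 at SYNPO2 to -0.23 at CNN1 on the log2 scale, with a median of all 10 of -0.25. Over all loci, 62.5% closed and 10.9% opened. Relative to the median of all loci (-0.26), 4 members were lower (SYNPO2, TAGLN, LMOD1 and ACTA2) and 6 higher. With loess offsets 0 of 10 loci were called, against 14.0% opened and 8.50% closed of all loci, and at an unadjusted p under 0.05 there were 0 higher and 1 lower. Fold changes above 0 were then seen at ACTG2, MYH11, CNN1, MYLK and MYOCD as well as DES. With library totals 3 closed (ACTA2, LMOD1 and SYNPO2) and DES opened, beside 3714 closed and 3624 opened of all 19188 loci. Of the 9 fibroblast marker loci 8 closed as well with TMM (median -0.34) and 2 with loess offsets.

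**Figure D1:**
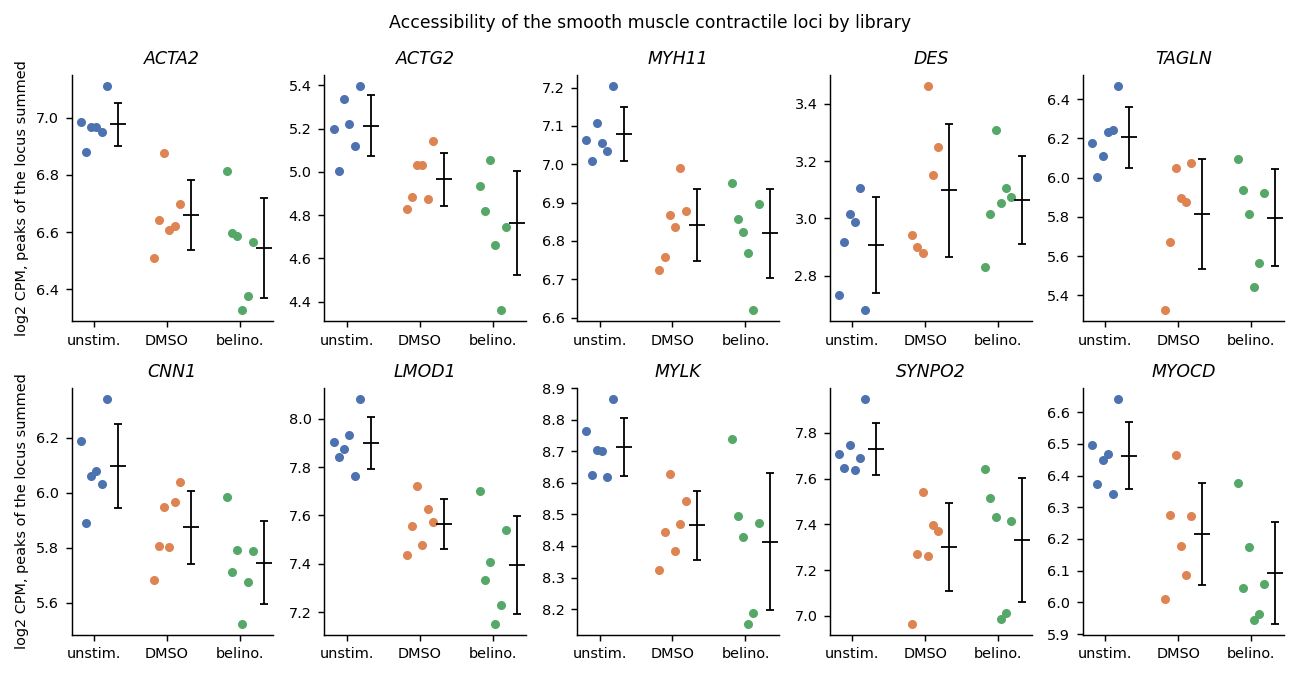
Accessibility of each of the 10 loci as log2 CPM of its summed peaks (TMM-scaled), 1 panel per gene with its own axis; points are the 6 libraries of each group in replicate order, bars the mean ± SD. At 4 loci (ACTA2, MYH11, LMOD1 and SYNPO2) every DMSO library lay below every unstimulated library, and at 0 loci were belinostat and DMSO apart. The share of all 19188 loci apart in this way is not given here, and 62.5% of them closed with TMM. Of the fibroblast markers, COL1A1, COL1A2, COL3A1, PDGFRB, THY1 and TWIST2 were lower without overlap as well, and PDGFRA, DCN and LUM overlapped.

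**Figure D2:**
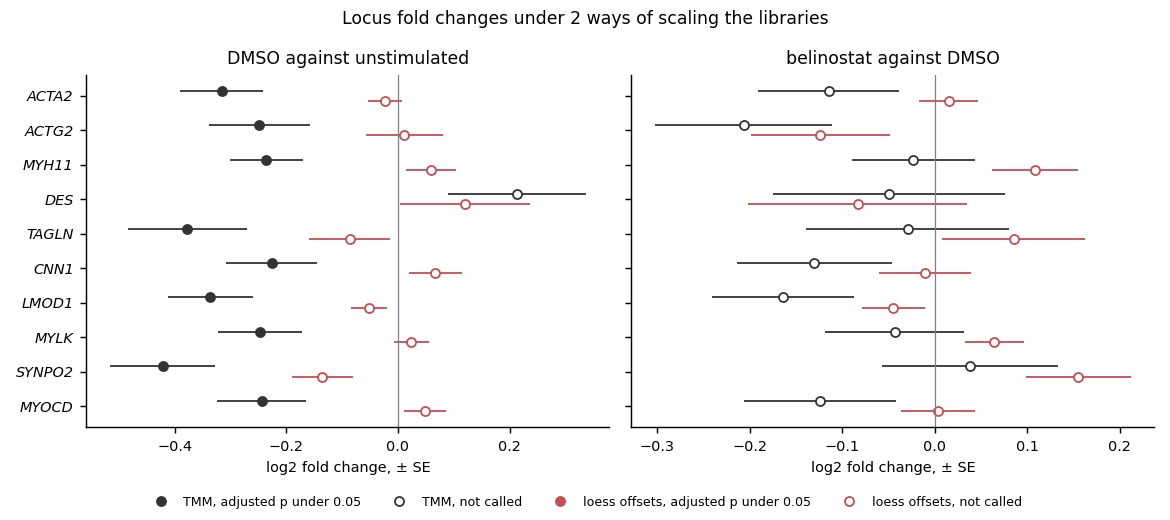
Log2 fold change ± SE of each locus in the cytokine contrast (left) and the belinostat contrast (right), with TMM (dark) and with loess offsets (red); filled points have an adjusted p under 0.05. In the left panel 9 TMM points are filled and 0 loess points, and in the right panel 0 of either.

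The order of libraries within groups was set beside their TMM factors. The library with the lowest TMM factor of its group, unstimulated 6, had the highest value of its group at 9 of 10 loci, and stimulated_Belinostat 1, likewise, at 8 of 10. Stimulated_DMSO 3, with the lowest factor of its group, was highest at 5 of 10. The libraries with the highest factors were lowest of their group at 5 (unstimulated 2), 9 (stimulated_DMSO 1) and 7 (stimulated_Belinostat 4) of the 10 loci. The same shares over all 19188 loci are not given here, so these counts are not read as a trait of the members. Unstimulated 6 also had the most peaks without a count (11.3%). The part of these libraries in the results was not tested beyond leaving each out: in the cytokine contrast 22 member peaks closed without unstimulated 6, 23 without unstimulated 1 and 25 without stimulated_DMSO 4, and 3 opened without unstimulated 6 or stimulated_DMSO 6 and 10 without stimulated_DMSO 3. Of all peaks 20700, 22468 and 23788 closed in the first 3 of these fits, and 18497, 26556 and 35956 opened in the last 3.

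Among the 241 peaks, 6 opened (against 9.51% of all peaks) and 38 closed (15.8% of members against 9.73% of all peaks) in the cytokine contrast. The median log2 fold change was -0.12 for member peaks and 0.13 for all peaks. Abundance runs along with this count. Of the 42 member peaks with an average log2 CPM over 3, 26 closed (61.9%), against 66.4% of all 29745 peaks of that class, and the median was -0.34 against -0.36. Of the 199 weaker member peaks 12 closed (6.03%, against 4.20% of all weaker peaks) and 6 opened (3.02%, against 10.4%). With loess offsets 1 member peak opened and 5 closed, against 2.13% and 1.78% of all peaks. All 5 closed peaks were closed with TMM too: 1 in MYH11, 1 in LMOD1 and 3 in MYLK.

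**Figure D3:**
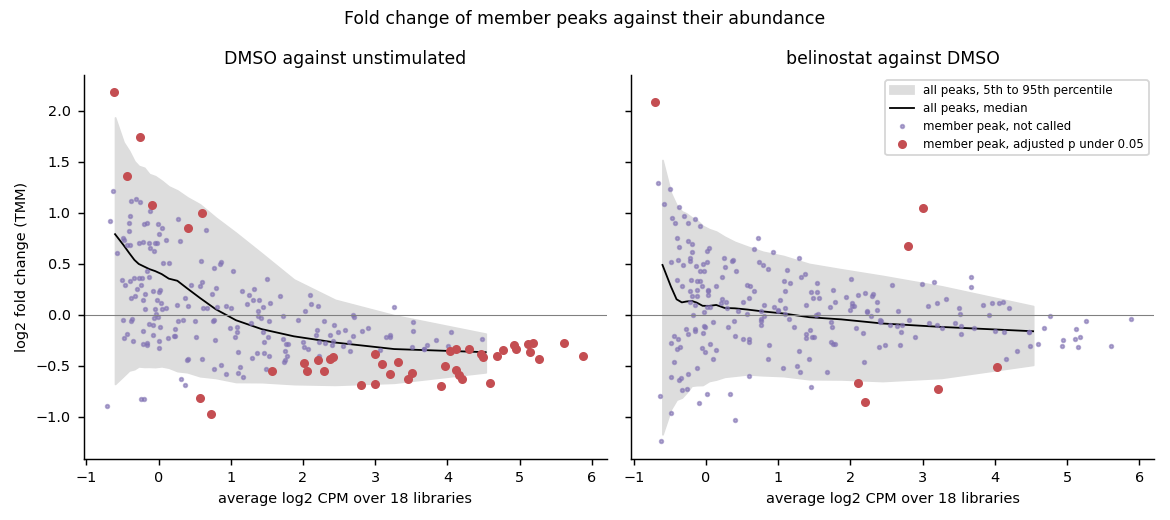
Log2 fold change (TMM) of the 241 member peaks against their average log2 CPM over 18 libraries, for the cytokine contrast (left) and the belinostat contrast (right); the line and band are the median and the 5th to 95th percentile of all peaks in 20 classes of abundance, and red points have an adjusted p under 0.05. On the left the called peaks at the strong end, above an average of 3, all lie below 0 (down to -0.70), and on the right 7 peaks are red.

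ACTA2 encodes smooth muscle alpha-actin (chr10:88935074-88991339, minus strand). Its locus had a log2 CPM of 6.88 to 7.11 in unstimulated libraries (median 6.97), 6.51 to 6.88 with DMSO (median 6.63) and 6.33 to 6.81 with belinostat (median 6.58). The unstimulated libraries stood above all DMSO libraries. On the log2 scale the cytokine change came to -0.32 with an SE of 0.07 (adjusted p 0.000891) and the belinostat change to -0.11 ± 0.08 (adjusted p 0.379; SE follows ± for changes throughout), and they were -0.02 (adjusted p 0.596) and 0.02 (adjusted p 0.872) with loess offsets.

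The annotated start of ACTA2 is an upstream one, and the peak there (chr10:88989857-88991512) fell by 0.34 on the log2 scale (adjusted p 0.0165). That peak lies in another protein-coding gene's body too, so its level and its fall cannot be assigned to ACTA2 alone. At the downstream RefSeq start the peak chr10:88952581-88953164 had the smallest p of the gene after cytokines. There the unstimulated libraries lay within 4.33 to 4.44, the DMSO libraries from 3.24 to 4.20 (median 3.98) and the belinostat libraries from 3.40 to 4.30 (median 4.16). Unstimulated libraries thus stood above both other groups, and their spread was the narrowest: the SD was 0.04 in unstimulated cells, 0.41 with DMSO and 0.39 with belinostat. The change was -0.54 ± 0.12 (adjusted p 0.0012), or -0.19 with loess offsets (adjusted p 0.215), and belinostat against DMSO gave 0.12 ± 0.13 (adjusted p 0.66). The intronic peak just past that start, chr10:88951523-88952160, holds the CArG box shown above and had the smallest p of the gene after belinostat, -0.31 ± 0.11 (adjusted p 0.138). Its cytokine change of -0.29 (adjusted p 0.0409) was lost in 8 of 18 fits without 1 library, with DESeq2 (adjusted p 0.0985) and with library totals (adjusted p 0.467), and stood at 0.09 with loess offsets. Of the 22 peaks 4 closed and 1 opened after cytokines, and 0 were called after belinostat.

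ACTG2 encodes the enteric smooth muscle gamma-actin (chr2:73892314-73919865, plus strand). Its locus ran from 5.00 to 5.4 (median 5.21) in unstimulated libraries, from 4.83 to 5.14 (median 4.96) with DMSO and from 4.36 to 5.05 (median 4.78) with belinostat, so that neighbouring groups overlapped. The change was -0.25 ± 0.09 (adjusted p 0.016) after cytokines and -0.21 ± 0.10 (adjusted p 0.211) after belinostat. The first call was lost without unstimulated 6, at -0.20, with library totals (-0.03) and with DESeq2 (adjusted p 0.0515), and the fold change was 0.01 with loess offsets. The start peak chr2:73892551-73893403, with both boxes printed above, was the peak that closed: it had 4.53 to 4.99 in unstimulated and 4.13 to 4.55 in DMSO libraries, a change of -0.39 ± 0.11 (adjusted p 0.0104) with TMM and of -0.01 (adjusted p 0.933) with loess offsets. After belinostat it stood at -0.17 ± 0.12 (adjusted p 0.482). The smallest p of the gene in that contrast, at the exonic peak chr2:73907600-73908356, belonged to -0.56 ± 0.21 (adjusted p 0.143).

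MYH11 encodes the smooth muscle myosin heavy chain (chr16:15703135-15857028, minus strand). Its locus had 7.01 to 7.20 (median 7.06) in unstimulated libraries, 6.73 to 6.99 (median 6.85) with DMSO and 6.62 to 6.95 (median 6.84) with belinostat. All DMSO libraries were below all unstimulated ones, while DMSO and belinostat overlapped. The cytokine change was -0.24 ± 0.07 (adjusted p 0.00258) with TMM and 0.06 (adjusted p 0.342) with loess offsets, and the belinostat change -0.02 ± 0.07 (adjusted p 0.865). Its 52 peaks moved both ways, with 3 opened and 3 closed after cytokines and 1 opened and 1 closed after belinostat.

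An intronic MYH11 peak 91103 bp from the start (chr16:15765541-15766309) was called in opposite directions by the 2 contrasts, which share the DMSO libraries. It had a log2 CPM of 2.74 to 3.18 (median 3.04) in unstimulated, 1.76 to 2.68 (median 2.38) in DMSO and 2.69 to 3.27 (median 3.01) in belinostat libraries. The DMSO libraries lay below all libraries of both other groups, which overlapped each other. The changes were -0.69 ± 0.15 (adjusted p 0.000775) after cytokines and 0.68 ± 0.16 (adjusted p 0.00409) after belinostat, and belinostat against unstimulated gave -0.02 ± 0.15 (adjusted p 0.943). With loess offsets they were -0.41 (adjusted p 0.066), 0.79 (adjusted p 5.09e-05) and 0.38 (adjusted p 0.0466).

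At the intronic peak chr16:15811681-15812599 all DMSO libraries (4.12 to 4.70) lay below all unstimulated ones (4.87 to 5.23), with a change of -0.67 ± 0.11 (adjusted p 5.25e-06) that also held with loess offsets, at -0.30 (adjusted p 0.00554). Belinostat libraries (3.73 to 4.35) were no higher, at -0.29 ± 0.12 (adjusted p 0.2). At chr16:15829304-15829900, belinostat libraries (3.36 to 3.74) lay below all DMSO libraries (3.91 to 4.19), a change of -0.52 ± 0.13 (adjusted p 0.00664) and of -0.36 with loess offsets (adjusted p 0.0142). That peak closed after cytokines as well, at -0.36 ± 0.12 (adjusted p 0.0203) with TMM, a call made in 23 of 28 alternatives, while with loess offsets it stood at 0.00 (adjusted p 0.989). The strongest peak by the start, at -1229 bp (chr16:15857796-15858719) with a CArG box, was not called after cytokines (-0.33 ± 0.13, adjusted p 0.0551). After belinostat it stood at 0.27 ± 0.13 (adjusted p 0.297), and with loess offsets it was called as opened, at 0.41 (adjusted p 0.00762).

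MYLK encodes myosin light chain kinase, which phosphorylates the myosin light chain and so starts contraction (chr3:123610049-123884332, minus strand). Its locus held the most counts of the 10, 46914 in all: 8.62 to 8.87 (median 8.70) in unstimulated, 8.32 to 8.63 (median 8.46) in DMSO and 8.15 to 8.74 (median 8.45) in belinostat libraries. The highest DMSO library reached above the lowest 2 unstimulated ones, and the rest were apart. The changes were -0.25 ± 0.08 (adjusted p 0.00492) and -0.04 ± 0.08 (adjusted p 0.762), or 0.02 (adjusted p 0.605) and 0.06 (adjusted p 0.263) with loess offsets. Of 70 peaks 1 opened and 9 closed after cytokines, and 0 opened and 2 closed after belinostat.

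The MYLK peak with the smallest p after cytokines, chr3:123757474-123758616, touches a non-coding exon. Its unstimulated libraries (4.24 to 4.38, median 4.35) stood above all DMSO (3.37 to 3.94, median 3.65) and all belinostat libraries (3.32 to 3.92, median 3.60). It fell by 0.70 on the log2 scale (SE 0.12, adjusted p 9.61e-06), was called in 28 of 28 alternatives, and did not move after belinostat beyond its error (-0.00 ± 0.13, adjusted p 0.993). The other peaks closed with both scalings were the CArG peak chr3:123632132-123632739 (-0.64 with TMM, -0.28 with loess, adjusted p 0.0376) and the weak peak chr3:123759356-123759613 (-0.98 and -1.09, adjusted p 0.016). The 1 member peak opened with loess offsets, chr3:123700883-123701450, also holds a CArG box, and its change was 0.40 (adjusted p 0.0228) with loess and 0.08 (adjusted p 0.721) with TMM. At the long transcript's start, chr3:123883641-123884905, cytokines gave -0.34 ± 0.11 (adjusted p 0.0201) and belinostat -0.01 ± 0.11 (adjusted p 0.97), and the first of these was 0.04 with loess offsets. At the downstream start of the short transcript, the strongest MYLK peak (chr3:123620214-123621151) gave -0.28 (adjusted p 0.0477) with TMM and 0.14 (adjusted p 0.09) with loess.

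After belinostat an intronic MYLK peak, chr3:123791334-123791778, went down further. It ran from 2.25 to 2.94 (median 2.59) in unstimulated, from 1.76 to 2.41 (median 2.30) in DMSO and from 1.03 to 1.78 (median 1.42) in belinostat libraries. Belinostat and DMSO touched at a single library each, and belinostat lay below all unstimulated libraries. The change after belinostat was -0.85 ± 0.20 (adjusted p 0.00369), called in 28 of 28 alternatives, and the one after cytokines was -0.44 ± 0.16 (adjusted p 0.0385), called in 18 of 28. The second peak closed by belinostat, chr3:123739648-123740214, touches a coding exon and holds the AP-1 word: its change was -0.67 ± 0.19 (adjusted p 0.0308), and it was not called with loess offsets (adjusted p 0.0695) or in 6 of the 18 fits without 1 library.

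**Figure D4:**
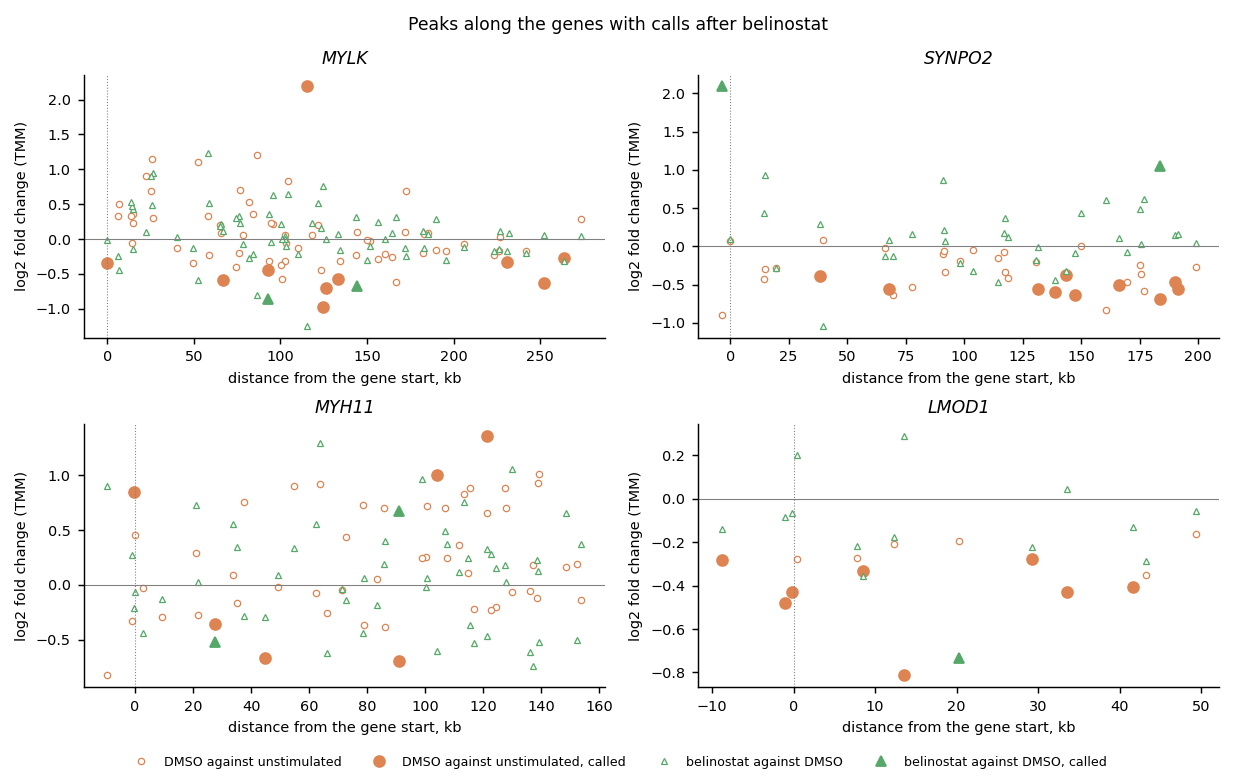
Log2 fold change (TMM) of each peak against the distance of its centre from the gene start, for the 4 genes with a peak called after belinostat; circles are the cytokine and triangles the belinostat contrast, filled where the adjusted p is under 0.05. In LMOD1 all 14 circles lie below 0, in SYNPO2 the filled triangles are both above 0, and in MYLK both below.

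TAGLN encodes transgelin, an actin-binding protein of smooth muscle and myofibroblasts (chr11:117199370-117207464, plus strand). Its start peak, chr11:117198777-117199865, was the strongest of the 241, with an average log2 CPM of 5.88. It had 5.94 to 6.41 (median 6.15) in unstimulated, 5.18 to 5.99 (median 5.78) in DMSO and 5.29 to 6.04 (median 5.75) in belinostat libraries, and the groups overlapped. The changes were -0.41 ± 0.11 (adjusted p 0.00428) and -0.04 ± 0.11 (adjusted p 0.872), or 0.02 (adjusted p 0.895) and 0.17 (adjusted p 0.099) with loess offsets. The locus fell by 0.38 on the log2 scale (SE 0.11, adjusted p 0.00297) after cytokines, and stood at -0.09 (adjusted p 0.405) with loess and -0.16 (adjusted p 0.105) with library totals. After belinostat the locus gave -0.03 ± 0.11 (adjusted p 0.897) and its peak of smallest p, chr11:117192717-117192954 within SIDT2, 0.54 ± 0.34 (adjusted p 0.432).

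CNN1 encodes calponin, which binds actin and damps the myosin motor (chr19:11538767-11550323, plus strand). Its locus ran from 5.89 to 6.34 in unstimulated, 5.68 to 6.04 in DMSO and 5.53 to 5.98 in belinostat libraries, with overlap throughout. The cytokine change of -0.23 ± 0.08 (adjusted p 0.0147) was lost when the peak chr19:11528563-11529500 at the neighbouring ECSIT gene was left out: it became -0.16 (adjusted p 0.107) without shared peaks and -0.18 (adjusted p 0.0867) with 3 kb upstream. It was also lost without unstimulated 1 (-0.19) and without unstimulated 6 (-0.16). By edgeR 0 of the 9 peaks were called in either contrast, while at an unadjusted p under 0.05 there were 2 lower after cytokines and 1 lower after belinostat, and the start peak stood at -0.31 ± 0.16 (adjusted p 0.145) and -0.10 ± 0.17 (adjusted p 0.792). That ECSIT peak had the smallest p in both contrasts, at -0.27 ± 0.11 (adjusted p 0.0548) and -0.24 ± 0.11 (adjusted p 0.272).

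LMOD1 encodes leiomodin, which nucleates actin filaments in smooth muscle (chr1:201896456-201946548, minus strand). Its locus was at 7.76 to 8.08 (median 7.89) in unstimulated, 7.44 to 7.72 (median 7.56) in DMSO and 7.15 to 7.70 (median 7.37) in belinostat libraries. Every DMSO library was below every unstimulated one. The change was -0.34 ± 0.08 (adjusted p 0.000682), or -0.05 (adjusted p 0.249) with loess offsets. All 14 peaks had a cytokine fold change below 0, from -0.81 to -0.16, and 8 were called. The start peak chr1:201946301-201947227 separated the groups, with 5.37 to 5.70 in unstimulated against 4.93 to 5.29 in DMSO libraries and a change of -0.43 ± 0.11 (adjusted p 0.00244), or -0.03 (adjusted p 0.795) with loess offsets.

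The LMOD1 peak that closed after belinostat was another one, in an intron 20307 bp from the start (chr1:201925865-201926618). Its log2 CPM was 3.23 to 3.69 (median 3.54) in unstimulated, 2.85 to 3.70 (median 3.30) in DMSO and 2.15 to 2.87 (median 2.64) in belinostat libraries. In the cytokine contrast it was below 0 and not called (-0.20 ± 0.13, adjusted p 0.296), and belinostat libraries lay below all unstimulated ones. The belinostat change was -0.73 ± 0.15 (adjusted p 0.000644) with TMM and -0.60 with loess offsets (adjusted p 0.00169), called in 28 of 28 alternatives. Summed over the locus the belinostat change was -0.16 ± 0.08 (adjusted p 0.214), which passed without stimulated_Belinostat 1, at -0.23. In that fit 4335 of all 19188 loci closed, against 391 with all libraries, and the median of all loci was -0.12 against -0.08.

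SYNPO2 encodes synaptopodin-2, an actin-bundling protein of the Z-disc and dense bodies (chr4:118850688-119061247, plus strand). Its locus had 7.64 to 7.95 (median 7.70) in unstimulated, 6.97 to 7.54 (median 7.32) in DMSO and 6.99 to 7.64 (median 7.42) in belinostat libraries. The DMSO libraries lay below all unstimulated ones. At -0.42 ± 0.09 (adjusted p 0.000637) its cytokine change was the most negative of the 10, also with loess offsets, where it was not called (-0.14, adjusted p 0.0715). Of 36 peaks 10 closed and 0 opened. The smallest p belonged to the intronic peak chr4:118989003-118989821, at -0.59 ± 0.12 (adjusted p 0.000283) with DMSO libraries (3.32 to 4.35) under all unstimulated ones (4.38 to 5.06), and at -0.23 (adjusted p 0.108) with loess offsets. Belinostat did not raise that peak: the change was -0.44 ± 0.13 (adjusted p 0.0549). The start peak was weak (average log2 CPM 0.81) and stood at 0.07 ± 0.27 (adjusted p 0.876) and 0.10 ± 0.27 (adjusted p 0.883).

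A distal SYNPO2 peak that touches a UTR exon, 183780 bp from the start (chr4:119034049-119034888), was the member peak with the smallest p after belinostat. In unstimulated libraries it lay within 2.83 to 3.20 (median 3.08). DMSO libraries ran from 1.20 to 3.39 (median 2.33) and belinostat libraries from 2.24 to 4.23 (median 3.54), so the last 2 groups overlapped widely and their SDs (0.77 and 0.82) were about as large as the difference. The changes were -0.68 ± 0.18 (adjusted p 0.00486) after cytokines and 1.05 ± 0.18 (adjusted p 1.56e-05) after belinostat. With loess offsets they were -0.38 (adjusted p 0.199) and 1.14 (adjusted p 5.59e-07), but DESeq2 called neither (adjusted p 0.265 and 0.0598). Left-out fits gave 0.83 to 1.35 for the second. The 3 belinostat libraries of 1, 2 and 3 were above every DMSO library, and replicates 4 and 5 were below the median of unstimulated cells.

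A weak SYNPO2 peak at -3698 bp from the start (chr4:118846898-118847083) was also higher after belinostat. It held 12 counts over the unstimulated, 6 over the DMSO and 23 over the belinostat libraries. Belinostat libraries, with 2 to 6 counts each, stood above all DMSO libraries, with 0 to 2, on the log2 CPM scale. The fitted change of 2.09 ± 0.61 (adjusted p 0.0357) depends on so few counts, and 7 of the 18 fits without 1 library and the loess fit (adjusted p 0.0835) lost it.

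**Figure D5:**
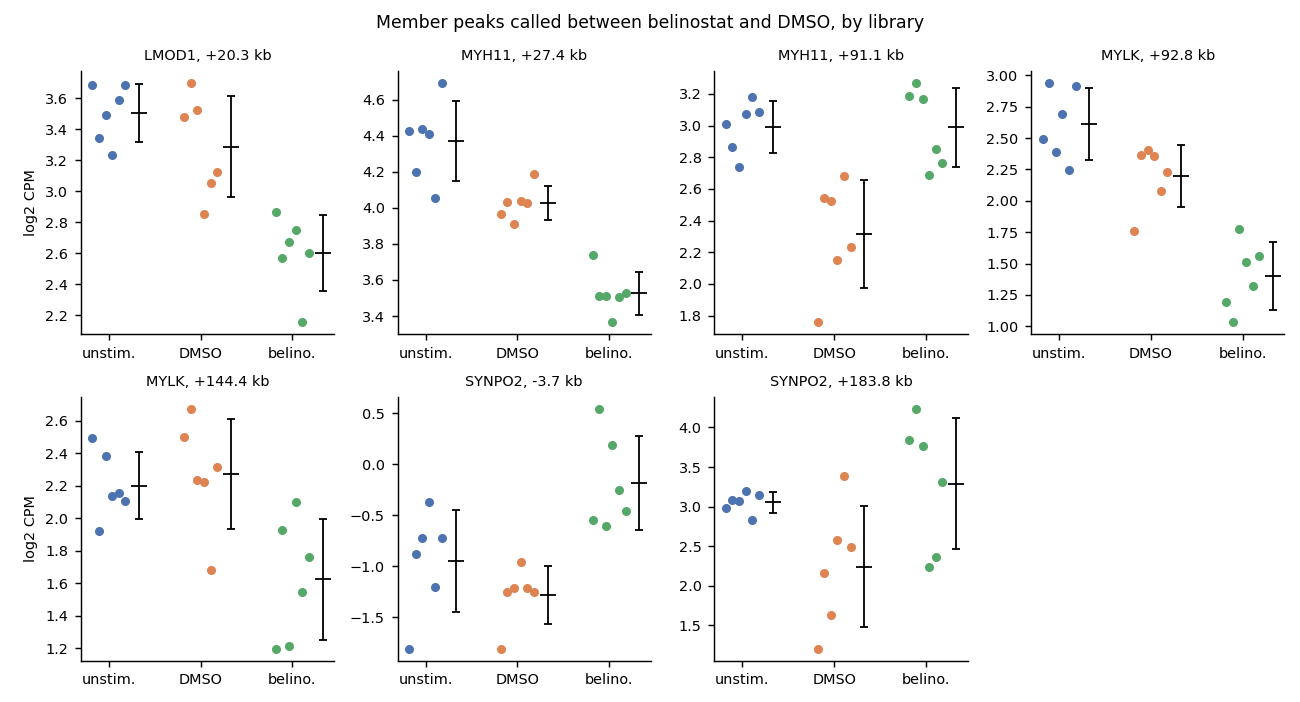
Log2 CPM in every library of the 7 member peaks called between belinostat and DMSO, named by gene and by distance of the centre from the gene start, with the mean ± SD beside the 6 points of each group and an axis for each panel. At 3 peaks (both of MYH11 and the upstream one of SYNPO2) belinostat and DMSO libraries are apart, and the distal SYNPO2 peak has the widest spread within groups (SD 0.77 and 0.82). The share of all peaks apart in this way is not given here.

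DES encodes desmin, the muscle intermediate filament (chr2:219418377-219426735, plus strand). It was the member locus with the fewest counts, 1001 over 18 libraries, at 2.68 to 3.11 (median 2.95) in unstimulated, 2.88 to 3.46 (median 3.05) in DMSO and 2.83 to 3.31 (median 3.06) in belinostat libraries. The groups overlapped. Its cytokine change was above 0, 0.21 ± 0.12, and missed the threshold (adjusted p 0.119). It passed with library totals (0.43, adjusted p 0.0193) and with a window of 3 kb upstream (0.39, adjusted p 0.0127), and turned to -0.23 with TMM over the weaker 50% of peaks. The CArG peak chr2:219416868-219417034, at -1426 bp from the start, opened: it held 10 counts over unstimulated, 35 over DMSO and 25 over belinostat libraries, a fitted change of 1.74 ± 0.49 (adjusted p 0.0078), or 1.35 with loess offsets (adjusted p 0.0898). The start peak gave 0.43 ± 0.26 (adjusted p 0.231) after cytokines. After belinostat the smallest p was that of chr2:219424457-219424918, at -0.56 ± 0.24 (adjusted p 0.217), and the locus stood at -0.05 ± 0.13 (adjusted p 0.844).

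MYOCD encodes myocardin, the SRF coactivator that drives the smooth muscle programme (chr17:12665890-12768949, plus strand). Its locus had 6.34 to 6.64 (median 6.46) in unstimulated, 6.01 to 6.46 (median 6.23) in DMSO and 5.95 to 6.38 (median 6.05) in belinostat libraries, with overlap. The changes were -0.24 ± 0.08 (adjusted p 0.00825) and -0.12 ± 0.08 (adjusted p 0.376), and 0.05 (adjusted p 0.362) and 0.00 (adjusted p 0.998) with loess offsets. Its start peak was not called, at -0.17 ± 0.12 (adjusted p 0.299) and 0.12 ± 0.12 (adjusted p 0.652). The intronic peak chr17:12727029-12727901 separated unstimulated (4.69 to 5.04) from DMSO libraries (4.01 to 4.63), at -0.41 ± 0.11 (adjusted p 0.00536) and -0.04 (adjusted p 0.767) with loess offsets. Its smallest p after belinostat was at the intronic AP-1 peak chr17:12709083-12709467, with -0.71 ± 0.24 (adjusted p 0.0874).

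The belinostat contrast asked whether the inhibitor moved these genes in cells already pulsed with cytokines. No member locus was called by edgeR with TMM or with loess offsets, against 0.125% opened and 2.04% closed of all loci with TMM, and 2.65% and 2.62% with loess. At an unadjusted p under 0.05, 0 loci were higher and 2 lower with TMM, and 2 higher and 0 lower with loess. Locus changes ran from -0.21 at ACTG2 to 0.04 at SYNPO2, and 5 of 10 lay below the median of all loci (-0.08). The changes at ACTA2, MYH11, TAGLN, MYLK and MYOCD were below 0 with TMM and above 0 with loess offsets, while SYNPO2 was above 0 and ACTG2, CNN1, LMOD1 and DES below 0 with both. Of the 241 peaks 3 opened (1.24%, against 0.607% of all peaks) and 4 closed (1.66%, against 1.75%), with a median of 0.03 beside 0.01. With loess offsets 5 opened and 3 closed, against 1.03% and 1.42% of all peaks, and 5 peaks were called with both scalings. With 7 calls by TMM in all, these shares rest on few peaks.

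The residual contrast, belinostat against unstimulated cells, gave 16 opened (against 16.8% of all peaks) and 50 closed member peaks (against 13.7%), with a median of -0.06 beside 0.20. All loci but DES closed, 9 of 10 with TMM, against 13.0% opened and 66.8% closed of all loci. With loess offsets MYH11 (0.17, adjusted p 0.00522) and MYLK (0.09, adjusted p 0.0295) were higher than in unstimulated cells and LMOD1 lower (-0.10, adjusted p 0.0239), against 20.6% opened and 18.2% closed of all loci.

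Other genes of the contractile apparatus were taken as a list of 24. After cytokines 22 loci closed and 1 opened with TMM (median -0.34), against 62.5% and 10.9% of all loci (median -0.26). With loess offsets 2 closed and 2 opened (median -0.05), against 8.50% and 14.0%. The locus that opened was KCNMB1, the beta subunit of the calcium-activated potassium channel of smooth muscle. It rose from 0.13 to 2.00 (median 1.56) in unstimulated to 2.29 to 2.92 (median 2.60) in DMSO libraries, which did not overlap, a change of 1.21 ± 0.21 (adjusted p 0.000219) and of 0.99 with loess offsets (adjusted p 0.000818). Its 8 peaks all lie in another protein-coding gene's body too, and after belinostat it stood at 0.16 ± 0.19 (adjusted p 0.621). Next by adjusted p came ITGA8, the integrin alpha 8 chain (-0.45 ± 0.09, adjusted p 0.000341), the adhesion protein LPP (-0.35), the small heat shock protein HSPB6 (-0.34) and smoothelin, SMTN (-0.34). ITGA8 also closed with loess offsets (-0.16, adjusted p 0.0394), while LPP, HSPB6 and SMTN were below 0 and not called. PLN closed with loess offsets too (-0.58, adjusted p 0.0448). After belinostat 1 of 24 closed with TMM and 0 opened (2.04% and 0.125% of all loci): HSPB6 fell by 0.29 on the log2 scale (adjusted p 0.0342), with all belinostat libraries below all DMSO libraries. That call was made in 17 of 26 alternatives. With loess offsets 1 closed and 3 opened (2.62% and 2.65% of all loci). These were HSPB6 (-0.16, adjusted p 0.0239), and ITGA8 (0.28, adjusted p 0.00607), the actin-binding CALD1 (0.18, adjusted p 0.0191) and the kinase PRKG1 (0.11, adjusted p 0.0251).

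Of 10 regulators of the contractile programme, 9 loci closed after cytokines with TMM (median -0.31), against 62.5% of all loci. With loess offsets 0 were called, against 8.50% closed and 14.0% opened of all loci, and at an unadjusted p under 0.05 there was 1 lower. GATA6 (-0.35), SRF itself (-0.35), MEF2C (-0.42), KLF5 (-0.38) and FOXF1 (-0.32) had the smallest adjusted p, 0.000704 to 0.00152. The coactivators MRTFA and MRTFB, named for their role after their values were seen, stood at -0.27 (adjusted p 0.00253 and 0.00613) with TMM and above 0 with loess offsets, at 0.013 and 0.022 (adjusted p 0.785 and 0.817). After belinostat 1 of 10 was called with TMM: HEYL, a Notch target that represses transcription, fell from 5.13 to 5.30 in DMSO libraries to 4.65 to 4.93 with belinostat, without overlap. The change was -0.43 ± 0.07 (adjusted p 0.00152) with TMM and -0.33 (adjusted p 0.000483) with loess offsets. With loess offsets SRF was called lower too (-0.15, adjusted p 0.0375; TMM -0.27, adjusted p 0.0863) and MRTFA higher (0.11, adjusted p 0.0391; TMM -0.02, adjusted p 0.913).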

How the data were processed

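The 18 ATAC-seq libraries of Ccd18-Co cells were analysed from 1 table of read counts per peak, which the authors deposited as unnormalised whole counts. In the study's methods, reads were run through the ENCODE ATAC-seq pipeline against hg38, and peaks were called, joined into 1 consensus set across conditions and counted. Per the file headers, duplicates and mitochondrial reads had been removed. The submitters' processing notes name MACS2 and ChIPseeker 1.34.1. Since peaks were called on these libraries, a site seen in few of them can be missing.

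Groups were taken from the labels. Labels do not say that replicates were separate cultures, so p-values measure only the spread between these samples. The 45 pairs of libraries within groups were compared over the 50000 strongest peaks by a chi-square per peak. Sampling noise alone gives a value of about 1. The lowest value was 1.03, and medians were 1.13 (unstimulated), 1.43 (stimulated_DMSO) and 1.18 (stimulated_Belinostat), so some pairs came close to sampling noise. Pairs from different groups were not compared. Counts were fitted over all 334857 peaks, and summed per locus over 19188 protein-coding loci, by edgeR 4.0.16 (quasi-likelihood test, all 3 groups in 1 fit, TMM, no covariate) in R 4.3.3, with limma 3.58.1, with Benjamini-Hochberg adjustment of p-values over every feature tested. Opened and closed mean an adjusted p under 0.05. The filter on average log2 CPM (-3) removed 0 peaks, as the lowest was -1.81. Levels are log2 CPM with a prior count of 2. Loess offsets (span 0.3) remove the trend with abundance. On counts simulated for the cytokine contrast over 334857 peaks with 200 of them changed, the peak fit recovered 81% of 2-fold and 100% of 4-fold changes and called 4 unchanged peaks. The changed peaks were drawn from those with an average log2 CPM over 1, while the median of member peaks was 0.99. No trend with abundance was simulated, so these figures do not cover weaker peaks or that trend. The locus fit was not simulated. Alternatives were library totals, TMM over weaker peaks or over 10 kb bins, DESeq2 1.42.0, other filters and windows, a replicate block and each library left out. Intervals and errors cover the spread between libraries, and libraries of 4661678 to 11352032 counts leave weak peaks with few counts. Named were, per gene, the start peak, the peak with the smallest p in each contrast and every peak called after belinostat, the 5 listed loci with the smallest adjusted p, and peaks held with loess offsets and the MYLK downstream start peak, the last 2 kinds chosen after their values were seen, as was the class of average log2 CPM over 3. The members and lists were chosen with earlier results of these data known. Some sequence is not reported here.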

Additional observations from a re-analysis of the deposited data

Results flagged for a closer look

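In 4 of the 60 groups of 6 libraries examined for the 10 loci and their start peaks, 1 library stood further from its group than Dixon's 95% limit for the gap as a share of the range, and chance alone passes about 1 in 20 groups. At the SYNPO2 locus unstimulated 6 had a log2 CPM of 7.95 and the others 7.64 to 7.75, a gap of 0.646. At the ACTA2 start peak stimulated_Belinostat 1 had 4.96 and the others 4.50 to 4.66, a gap of 0.659. The CNN1 start peak had 3.22 in unstimulated 6 against 2.59 to 2.76 in the others, a gap of 0.732, and 1.61 in stimulated_Belinostat 5 against 2.29 to 2.68 in the others, a gap of 0.634. Unstimulated 6 and stimulated_Belinostat 1 have the lowest TMM factor of their groups, and the part of this in the values was not tested.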

How the results depend on the processing

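Scaling moved the member counts most. Under library totals 14 member peaks opened and 11 closed, with 1 opened and 3 closed loci in the cytokine contrast, and 45 opened and 19 closed peaks and 1 opened and 2 closed loci in the residual one. Of all 334857 peaks 54265 opened and 10894 closed in the cytokine and 101897 and 21124 in the residual contrast under that scaling. Of all 19188 loci 3624 opened and 3714 closed, and 4959 and 5652 in the residual contrast. Under TMM over the weaker 50% of peaks, cytokines opened 2 member peaks and closed 102, belinostat opened 1 and closed 2, and the residual contrast held 2 and 110. For all peaks these pairs were 7513 and 84230, 328 and 3390, and 8850 and 103354. TMM over 10 kb bins left 25 closed after cytokines, against 26177 of all peaks. Loess offsets gave 1 opened and 5 closed peaks and 0 closed loci after cytokines, 5 opened peaks after belinostat, and 11 closed peaks, 2 opened and 1 closed loci in the residual contrast. Over all features these were 7137 and 5965 peaks and 1631 loci, 3452 peaks, and 14557 peaks, 3958 and 3494 loci. DESeq2 gave 3 opened and 18 closed after cytokines, 1 opened after belinostat and 31 closed in the residual contrast. Its calls over all peaks were 15215 and 18587, 1081, and 33828 in that order. A window of 3 kb opened 1 locus in the cytokine and in the residual contrast, and an average log2 CPM over 0 left 6 residual opened peaks. Over all features these were 2009 and 2427 of 18893 loci, and 25293 of 200098 peaks. Left-out libraries gave 3 to 10 opened and 22 to 45 closed peaks and 7 to 9 closed loci after cytokines, 2 to 3 opened and 3 to 8 closed peaks and 0 to 1 closed loci after belinostat, and 10 to 18 opened and 38 to 61 closed peaks in the residual contrast. Over all features they gave 18497 to 35956 opened and 20700 to 37123 closed peaks and 10587 to 12554 closed loci after cytokines. After belinostat there were 1010 to 2864 opened and 3900 to 8703 closed peaks and 101 to 4335 closed loci. The residual contrast held 37404 to 65269 opened and 38926 to 50162 closed peaks. The cause was not tested.

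Directions turned as follows. With loess offsets the cytokine change was 0.012 at ACTG2, 0.059 at MYH11, 0.067 at CNN1, 0.024 at MYLK and 0.049 at MYOCD, and at peaks 0.094 and 0.047 (ACTA2 intron and start), 0.0029 (MYH11 chr16:15829304-15829900), 0.016 (TAGLN start) and 0.045 (MYLK start). DES was -0.23 with TMM over weaker peaks. After belinostat, loess offsets gave 0.015 at ACTA2, 0.11 at MYH11, 0.085 at TAGLN, 0.064 at MYLK and 0.0037 at MYOCD, library totals gave 0.063 at MYH11, 0.042 at DES, 0.053 at TAGLN and 0.037 at MYLK, and TMM over weaker peaks gave -0.067 at SYNPO2. Left-out libraries ran from -0.049 to 0.016 at MYH11, -0.098 to 0.043 at DES, -0.11 to 0.037 at TAGLN, -0.11 to 0.0059 at MYLK and -0.027 to 0.10 at SYNPO2.

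The replicate numbers are shared between groups. Correlations of same-numbered libraries ran from -0.20 to 0.13 over 18 pairs, 1 of them over 0.1. Libraries of different number were not compared in this way, so whether the numbers pair the libraries is not settled. With a replicate block the cytokine contrast gave 6 opened and 43 closed peaks and 9 closed loci, the belinostat contrast 3 and 6 peaks, and the residual contrast 15 and 53 peaks and 9 closed loci. For all peaks these were 32344 and 34536, 1902 and 6230, and 54150 and 46357. Of all loci 12220 closed in the cytokine and 12893 in the residual contrast. In the belinostat contrast 57 of all loci opened and 1011 closed with the block, against 24 and 391 without it. Without a filter the peaks tested were the same. Peaks of few counts, such as the upstream ones of DES and SYNPO2, are limited by depth.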
